A study of Mus musculus with 16 samples.

Results

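The 36 genes described here encode integrins and other cell adhesion molecules of mouse CD8+ T cells. They were taken as a list of symbols chosen with earlier results of these data known. Each was matched to its Ensembl gene among the 55401 genes of the deposited tables. They comprise 14 integrin alpha chains, 8 integrin beta chains, 8 adhesion and costimulatory receptors of the immunoglobulin superfamily, the hyaluronan receptor Cd44, 3 proteins that switch integrins on (Tln1, Tln2 and Fermt3) and the tetraspanins Cd9 and Cd81. RNA-seq with poly-A selection was performed on 4 groups of 4 libraries. The cells were OT-I T cells, whose transgenic receptor recognises an ovalbumin peptide, from mice aged 8 to 12 weeks. All groups were stimulated with that peptide for 3 days and then kept in a cytokine for 4 days, IL-2 for effector cells (TE) and IL-15 for memory cells (TM). WT TE are libraries 1 to 4, TPdh-/- TE libraries 5 to 8, WT TM libraries 9 to 12 and TPdh-/- TM libraries 13 to 16. TPdh-/- cells carry a floxed Pdha1, which encodes an E1 subunit of the complex that turns pyruvate into acetyl-CoA (pyruvate dehydrogenase complex, PDC), deleted by a Cre transgene driven from Cd4 regulatory sequence, which acts while thymocytes express CD4 and therefore in both CD4+ and CD8+ lineages. The sources used here do not say whether the WT cells carried Cre. The paper states 5 mice per condition for RNA-seq, while the labels give 4 libraries per group and do not tie them to mice. The p-values therefore measure the spread between these libraries, which may be technical.

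Integrins are pairs of an alpha and a beta chain that span the membrane and bind matrix proteins or receptors on other cells. On T cells the pair of Itgal and Itgb2 (LFA-1) holds the contact with the target cell through ICAM proteins. Itga4 pairs with Itgb1 or Itgb7 and serves entry into inflamed tissue and gut. Itga1 and Itga2 each pair with Itgb1 to bind collagen, and Itga1 is carried by CD8+ T cells that stay in tissue. A resting integrin is bent and binds weakly, and talin (Tln1, Tln2) and kindlin-3 (Fermt3) attach to the beta tail and straighten it.

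Of the 36 members, 33 had enough counts for a test among 15277 tested genes. Itga8, a matrix-binding chain, and Itgb6 and Itgb8, partners of the alpha v chain, did not pass and reached at most 0.0344 normalised counts per 1000000 (CPM) in any library. Another 6 of the 33 were near the limit of 0.168 CPM. Vcam1 exceeded it in all 4 libraries of TPdh-/- TM alone, Icam4 in no group, Itgb4 in both TE groups, and Itga9, Itgb5 and Itgad in all groups but WT TM. Exons of 15 members share positions with another annotated gene, and the library kit does not record strand. The overlap covers 68.7% of Itgam exon bases, shared with Gm49368, which had 0 to 0.390 CPM, and 100% of those of Icam4, shared with Gm47079.

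Library totals ran from 53007257 to 73507566 counts. Library 12 of WT TM and library 5 of TPdh-/- TE lay farthest from the others of their groups, and results are given without them where they matter. The summed level of 8 CD8 T cell markers was 4517 to 4751 transcripts per 1000000 (TPM) in WT TM and 3608 to 3815 in TPdh-/- TM (0 of 8 higher, 6 lower), and 3634 to 3887 in WT TE and 2806 to 3120 in TPdh-/- TE (0 higher, 7 lower), with no marker at 0. Whole-gene counts of Pdha1 were 169 to 194 CPM in WT TM and 141 to 160 CPM in TPdh-/- TM. In TE they were 160 to 162 CPM in WT and 147 to 156 CPM in TPdh-/- cells. The log2 difference was -0.22 in TM and -0.075 in TE (edgeR's quasi-likelihood test, adjusted p = 0.00556 and 0.285). The paper reports PDHA protein absent and Pdha mRNA undetected in TPdh-/- T cells. The sources used here do not say which exon is floxed, and counts per gene do not separate exons, so these values do not check the deletion. Markers of other cells moved with genotype. Of 8 macrophage and monocyte markers, 4 were tested and 4 were higher in TPdh-/- cells of each culture. Their sum was 5.0 to 6.29 TPM in WT TM and 21.8 to 36 in TPdh-/- TM, and 8.29 to 10.6 in WT TE and 13.9 to 21.9 in TPdh-/- TE. Lyz2 made most of the sum in TPdh-/- TM (17.7 to 28.8 TPM), while in WT TM Lyz2 and Cd68 had means of 2.73 and 2.74 TPM, and Csf1r, Adgre1 and Fcgr1 reached at most 0.68 TPM in any library. The sum of 8 NK cell markers, of which Klrk1 and Eomes are also transcribed by activated CD8+ T cells, was 47.5 to 64.9 TPM in WT TM and 137 to 195 in TPdh-/- TM (7 of 8 higher, 0 lower), but 233 to 259 in WT TE and 85.6 to 132 in TPdh-/- TE (4 higher, 2 lower). All 6 gamma-delta T cell markers were higher in TPdh-/- cells of both cultures, with sums of 56.2 to 63.8 TPM in WT TM, 159 to 187 in TPdh-/- TM, 90.5 to 101 in WT TE and 195 to 317 in TPdh-/- TE. The lists of CD4 T cells, neutrophils, dendritic cells, B cells, plasma cells, platelets, erythroid cells, fibroblasts and mast cells summed to at most 42.05 TPM in any library, and the endothelial list to at most 69.3. In both cultures the genotypes did not overlap for the CD8 T cell, macrophage, NK, gamma-delta, dendritic cell and platelet sums (exact 2-sided permutation test, p = 0.0286, the smallest that 4 against 4 allows, and 0.0471 adjusted over 28 sums). The same p was reached in TM by the CD4 T cell list, with means of 3.71 TPM in WT and 7.11 TPM in TPdh-/- cells, and by the mast cell list, with 0.168 and 1.23 TPM. In TE it was reached by the plasma cell list, with means of 1.61 and 7.81 TPM, the B cell list, with 7.46 and 8.74 TPM, and the fibroblast list, with 0.0225 and 0.09 TPM.

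In TPM, which allow for gene length, LFA-1 supplied the most abundant alpha chain. Shares are of the 14 alpha chains listed here and leave out Itgae, which had a mean of 46.6 TPM in WT TM. Itgal made up 74.2% ± 2.65 (SD, n = 4) of the alpha chain transcripts in WT TE, 79.4% ± 3.02 in TPdh-/- TE, 64.6% ± 3.63 in WT TM and 63.1% ± 2.44 in TPdh-/- TM. Itga4 was the next in TM, with 20.5% ± 2.76 in WT TM and 22.5% ± 2.46 in TPdh-/- TM, against 3.97% ± 0.329 in WT TE and 4.29% ± 1.04 in TPdh-/- TE. Among beta chains the largest share in TM belonged to Itgb7, at 49.5% ± 3.03 in WT TM and 41.3% ± 3.06 in TPdh-/- TM. Itgb1 held 33.7% ± 0.929 in WT TE, 30.7% ± 1.95 in TPdh-/- TE, 17.8% ± 1.34 in WT TM and 28.2% ± 3.04 in TPdh-/- TM. The Itgb1 share in TPdh-/- TM thus lay nearer to that of the TE groups than to that of WT TM. Itgb2 stayed between 25.8% and 30.0% on average in the 4 groups.

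**Figure D1:**
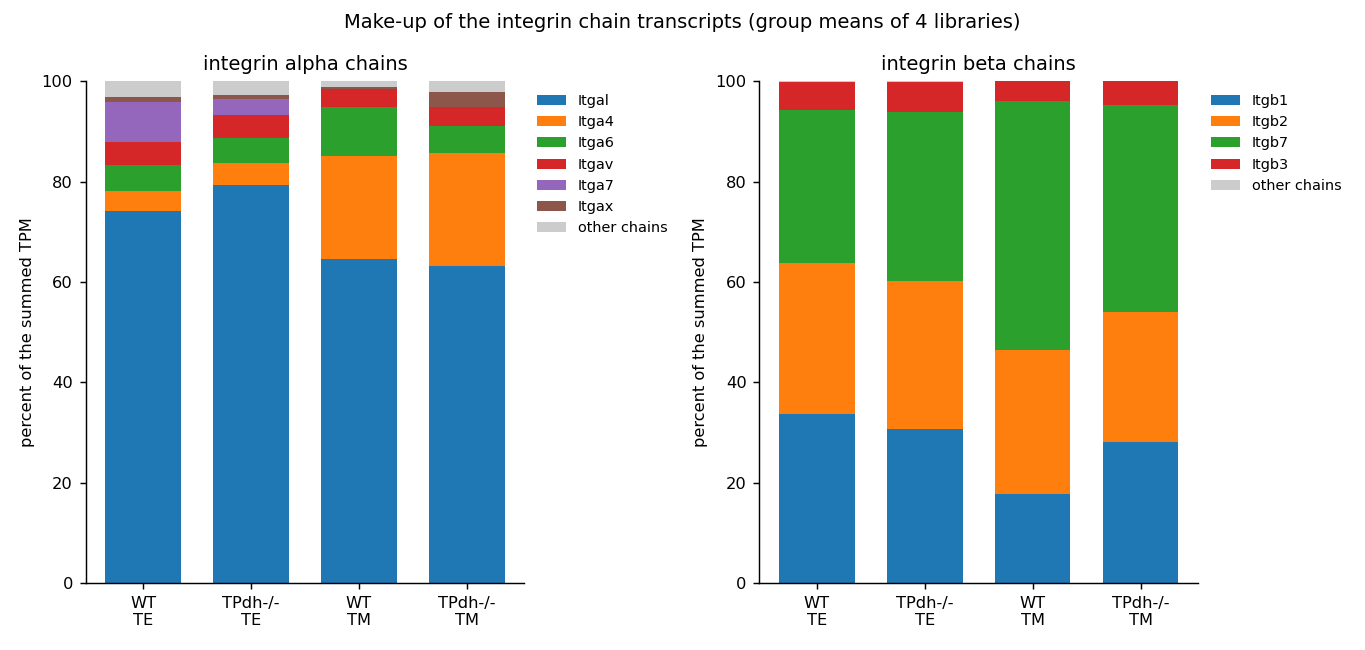
Share of each integrin chain in the summed TPM of the 14 alpha chains (left) and the 8 beta chains (right), as means of 4 libraries per group. Itgal is the largest alpha share in each group, and Itgb1 holds 17.8% of the beta chain transcripts in WT TM and 28.2% in TPdh-/- TM.

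What loss of PDC did to adhesion genes in memory cells was asked first by comparing TPdh-/- TM with WT TM. The collagen-binding chains Itga1 and Itga2 with their partner Itgb1, the complement-receptor chains Itgam and Itgax, and both tetraspanins were higher in TPdh-/- TM. The laminin-binding chain Itga6 and the gut-homing chain Itgb7 were lower. Of the 33 tested members 15 rose and 4 fell, where 11.0% and 7.27% of all tested genes did so and 18.3% were called in either direction (edgeR's quasi-likelihood test, Benjamini-Hochberg adjusted p below 0.05 over all 15277 genes). The median log2 difference of the members was 0.22 and their median size 0.34, against -0.0048 and 0.15 over all tested genes. Vcam1 passed the filter through TPdh-/- TM alone, so its place among the 15 follows in part from the filter. Without libraries 5 and 12, 15 rose and 3 fell, with 16 of the 19 calls shared.

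Itga1, the alpha1 chain, stood at 1.98, 0.981, 2.98 and 1.62 CPM in the WT TM libraries and at 12.7, 9.78, 13.3 and 26.4 CPM in TPdh-/- TM. Every deficient library was above every WT library, and library 16 was the highest. The log2 difference was 3.04 (SE 0.45, adjusted p = 4.31e-06), a fold of 8.20. Itga2, the alpha2 chain, measured 8.66, 7.76, 10.2 and 9.84 CPM in WT TM and 13.3, 12.3, 15.2 and 17.5 CPM in TPdh-/- TM. The groups did not overlap, with a log2 difference of 0.68 (SE 0.14, adjusted p = 0.000276). Their shared partner Itgb1 ran at 376, 401, 416 and 351 CPM in WT TM and 597, 582, 788 and 696 CPM in TPdh-/- TM. The lowest deficient library again exceeded the highest WT library, and the log2 difference was 0.79 (SE 0.12, adjusted p = 4.31e-06). The NK marker sum rose in the same libraries, from a mean of 55.5 TPM in WT TM to 174 TPM in TPdh-/- TM. Its part in the differences of these chains was not tested.

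Itgax encodes CD11c, a partner of Itgb2 that dendritic cells, NK cells and some activated CD8+ T cells carry. Its level was 2.54, 1.68, 3.94 and 3.32 CPM in WT TM and 18.4, 15.1, 25.2 and 41.2 CPM in TPdh-/- TM. All 4 deficient libraries were far above the WT range, again led by library 16, with a log2 difference of 3.12 (SE 0.41, adjusted p = 6.23e-06) and a fold of 8.68. Itgam, the CD11b chain of Mac-1, which macrophages and NK cells carry, gave 0.749, 0.722, 0.907 and 1.07 CPM in WT TM and 3.68, 2.04, 3.65 and 5.2 CPM in TPdh-/- TM. The ranges were separate and the log2 difference was 2.08 (SE 0.30, adjusted p = 9.32e-05). The macrophage and the NK marker sums rose in the same libraries, and the dendritic cell list (2 of 6 markers tested, both higher) summed to 0.42 to 0.47 TPM in WT TM and 0.88 to 1.19 TPM in TPdh-/- TM, with Cd209a at 0 in both groups. Their part in the Itgam and Itgax difference was not tested, and in bulk samples a change in the share of a cell type and a change of RNA per cell cannot be told apart. Itgad, the neighbouring CD11d chain, was low at 0.14 to 0.308 CPM in WT TM and 0.231 to 0.574 CPM in TPdh-/- TM. These ranges overlapped and its call lay at the threshold, with a log2 difference of 0.87 (SE 0.36, adjusted p = 0.0491) that was lost without any 1 of 13 libraries (adjusted p 0.00901 to 0.372 over its alternatives).

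Several of the chains that rose lie as neighbours in the mouse genome (GRCm38). Itga2 and Itga1 follow each other on the minus strand of chromosome 13, at chr13:114833081-114932100 and chr13:114953096-115101964, with 20995 bases between them. Itgam, Itgax and Itgad follow each other on the plus strand of chromosome 7, 11055 and 3718 bases apart. The gene before Itga2, Mocs2, had a log2 difference of 0.04 (adjusted p = 0.749) in TM, and Pelo, which lies inside Itga1, had 0.38 (adjusted p = 0.0181). Gm49395, which also overlaps Itga1, had 2.57 (adjusted p = 0.0628), and Parp8, the next tested protein-coding gene after Itga1 at 1752856 bases, had 0.42 (adjusted p = 0.0254). Of the genes that flank the chromosome 7 group, Pycard had -0.02 (adjusted p = 0.869) and 9130023H24Rik had -0.21 (adjusted p = 0.179). Neither flanking gene on chromosome 7 was called in TM.

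The promoters of these neighbours are printed because each pair rose together in TPdh-/- TM. RefSeq sequences on GRCm38.p6 were matched for 24 of the 36 members and cover 250 bases before and 50 bases after the start of the gene, read 5′ to 3′ on its own strand. Capitals mark matches, on either strand, to the RUNX letters TGTGGT or the ETS letters GGAAGT, both of them families of T cell transcription factors. T-box letters (AGGTGT) were searched too and had no match in these windows. The Itga1 window is chr13:115101915-115102214 and the Itga2 window chr13:114932051-114932350, both on the minus strand. The Itgam window is chr7:128062390-128062689 and the Itgax window chr7:128129300-128129599, both on the plus strand.
Itga1: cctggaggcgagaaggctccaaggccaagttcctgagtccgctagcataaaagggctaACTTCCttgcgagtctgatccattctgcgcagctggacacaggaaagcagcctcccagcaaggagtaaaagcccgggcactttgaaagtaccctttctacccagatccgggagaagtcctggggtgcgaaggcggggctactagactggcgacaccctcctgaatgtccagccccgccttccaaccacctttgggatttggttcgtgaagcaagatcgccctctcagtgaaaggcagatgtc
Itga2: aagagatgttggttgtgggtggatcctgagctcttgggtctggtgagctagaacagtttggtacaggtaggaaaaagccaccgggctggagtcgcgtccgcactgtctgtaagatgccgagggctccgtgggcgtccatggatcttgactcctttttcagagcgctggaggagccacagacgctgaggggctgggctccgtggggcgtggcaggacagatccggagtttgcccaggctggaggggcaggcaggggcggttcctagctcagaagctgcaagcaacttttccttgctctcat
Itgam: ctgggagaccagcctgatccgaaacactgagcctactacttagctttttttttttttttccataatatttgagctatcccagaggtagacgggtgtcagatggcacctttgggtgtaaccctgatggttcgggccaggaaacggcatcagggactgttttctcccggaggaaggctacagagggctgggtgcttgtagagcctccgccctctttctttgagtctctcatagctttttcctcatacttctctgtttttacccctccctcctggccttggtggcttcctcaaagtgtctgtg
Itgax: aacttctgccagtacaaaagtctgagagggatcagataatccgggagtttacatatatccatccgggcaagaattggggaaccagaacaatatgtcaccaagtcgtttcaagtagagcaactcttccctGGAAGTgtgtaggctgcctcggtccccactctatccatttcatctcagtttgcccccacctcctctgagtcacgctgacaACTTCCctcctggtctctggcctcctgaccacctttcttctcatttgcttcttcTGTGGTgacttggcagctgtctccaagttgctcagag
Itgax held 2 ETS matches and 1 RUNX match, Itga1 held 1 ETS match, and Itga2 and Itgam held no match to any of them. RUNX letters were found in 16.8% of the 32851 promoters of the table and in 6 of the 24 members, and ETS letters in 23.8% and in 7 of the 24. T-box letters were found in 13.7% of promoters and 2 members. The motifs do not overlap one another in the windows shown. These matches describe the letters and are not evidence of binding.

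**Figure D2:**
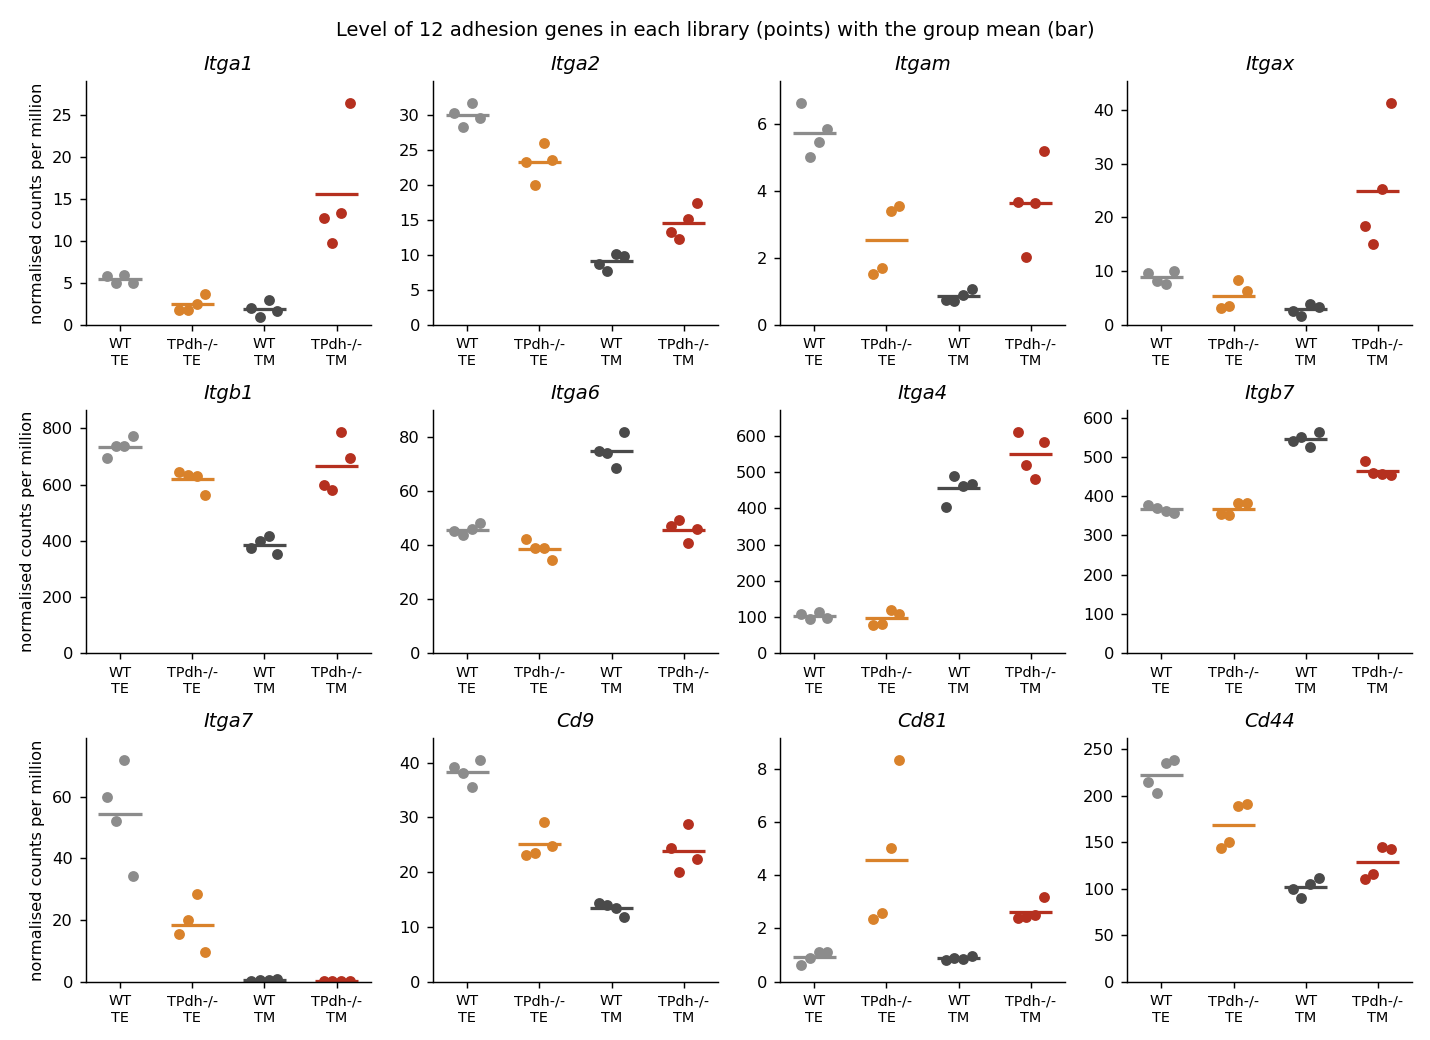
Normalised CPM of 12 adhesion genes in each of the 16 libraries (points), with the mean of each group of 4 (bar), on linear axes that start at 0. Itga1, Itga2, Itgam and Itgb1 are higher in TPdh-/- TM than in WT TM and lower in TPdh-/- TE than in WT TE, with no overlap in either culture.

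The laminin receptor chain Itga6 fell in TPdh-/- TM. It stood at 75, 74.2, 68.8 and 82.2 CPM in WT TM and 47.1, 49.5, 40.9 and 46 CPM in TPdh-/- TM. Every WT library lay above every deficient one, and the log2 difference of -0.71 (SE 0.08, adjusted p = 1.58e-06) had the smallest adjusted p of the members in this comparison. Itgb7, which pairs with Itga4 and with Itgae, ran at 541, 552, 524 and 564 CPM in WT TM and 489, 459.5, 456 and 454 CPM in TPdh-/- TM. The difference was small but free of overlap, at -0.23 (SE 0.03, adjusted p = 0.00196). Itga4 itself was 403, 491, 462 and 468 CPM in WT TM and 612, 521, 482 and 584 CPM in TPdh-/- TM. Library 15 lay below library 10, the WT maximum, and with a log2 difference of 0.27 (SE 0.10, adjusted p = 0.127) the gene was not called.

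The vitronectin-binding chains Itgav, Itgb3 and Itgb5 rose. Itgav, the alpha v chain, measured 52.5, 52.1, 50.1 and 50.3 CPM in WT TM and 59.2, 55.6, 64.7 and 61.9 CPM in TPdh-/- TM. The groups were separate, with a log2 difference of 0.24 (SE 0.05, adjusted p = 0.00315). Its partner Itgb3 gave 134, 144, 127 and 154 CPM in WT TM and 179.5, 191, 163 and 175 CPM in TPdh-/- TM. These ranges did not overlap either, but the log2 difference of 0.34 (SE 0.08, adjusted p = 0.0318) lost its call without library 9, 11, 13, 14 or 16 (adjusted p 0.00249 to 0.148 over its alternatives). Itgb5, another partner of Itgav, was near the detection limit at 0.0342 to 0.13 CPM in WT TM and 0.242 to 0.482 CPM in TPdh-/- TM, and rose by 1.83 (SE 0.38, adjusted p = 0.00606). Itga9, a tenascin-binding partner of Itgb1, rose from 0 to 0.217 CPM to 0.178 to 0.71 CPM, with overlapping ranges and a log2 difference of 2.21 (SE 0.71, adjusted p = 0.00739). It became 3.16 without library 12 alone. Itgb4, the second partner of Itga6, was at 0.078 to 0.183 CPM in WT TM and 0.0355 to 0.0755 CPM in TPdh-/- TM, and its log2 difference of -1.22 (SE 0.26, adjusted p = 0.0317) lost its call without library 11, 12, 14 or 16 (adjusted p 0.0159 to 0.129 over its alternatives).

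Both tetraspanins rose in TPdh-/- TM. These proteins span the membrane 4 times and gather integrins and other receptors into clusters. Cd9 stood at 14.5, 14.1, 13.4 and 11.9 CPM in WT TM and 24.4, 20, 28.7 and 22.5 CPM in TPdh-/- TM. The deficient libraries lay wholly above the WT range, with a log2 difference of 0.83 (SE 0.13, adjusted p = 1.65e-05). Cd81 was scarcer, at 0.811, 0.907, 0.856 and 0.984 CPM in WT TM and 2.37, 2.44, 2.51 and 3.18 CPM in TPdh-/- TM. Each deficient library had more than 2 times the level of any WT library, and the log2 difference was 1.56 (SE 0.11, adjusted p = 0.00265). The platelet list, whose cells also carry CD9 and the pair of Itga2b and Itgb3, summed to 4.35 to 5.23 TPM in WT TM and 6.56 to 9.28 TPM in TPdh-/- TM with 1 of its 4 tested markers higher. Its part in these results was not tested.

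Among the receptors of the immunoglobulin superfamily, 2 of 8 rose and none fell in TM, or 25.0% called against 18.3% of all tested genes. One of them, Vcam1, passed the filter through TPdh-/- TM alone. Cd226, also called DNAM-1, binds nectin-like ligands and costimulates killing. Its level was 334, 338, 362 and 299 CPM in WT TM and 372, 390.0, 426 and 457 CPM in TPdh-/- TM. No deficient library fell within the WT range, and the log2 difference was 0.30 (SE 0.09, adjusted p = 0.00468). Vcam1, a ligand of the Itga4 pairs, was at 0.0171 to 0.13 CPM in WT TM and 0.213 to 0.639 CPM in TPdh-/- TM, with a log2 difference of 2.45 (SE 0.47, adjusted p = 0.00474). Cd48, the ligand of CD2 in mice, was at 352, 361, 353 and 283 CPM in WT TM and 268, 295, 279 and 285 CPM in TPdh-/- TM. Library 12 was the lowest of its group and lay inside the deficient range, and the log2 difference of -0.26 (SE 0.09, adjusted p = 0.0529) was not called. It passed in 7 of 23 alternatives, with values from -0.337 to -0.227 (adjusted p 0.000308 to 0.1265 over its alternatives).

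Cd44, the hyaluronan receptor that marks antigen-experienced T cells, had 99.7, 90.2, 105 and 112 CPM in WT TM and 110.1, 115, 145 and 143 CPM in TPdh-/- TM. Library 12 was above library 13, and the log2 difference of 0.34 (SE 0.12, adjusted p = 0.0368) lost its call without library 9, 10, 11, 15 or 16 (adjusted p 0.0162 to 0.138 over its alternatives). Tln1, the main talin of leukocytes, had 697, 645, 622 and 889 CPM in WT TM and 605, 575, 537 and 594 CPM in TPdh-/- TM. Library 12 stood far above the rest, and the log2 difference of -0.30 (SE 0.12, adjusted p = 0.0357) lost its call without library 9, 12, 14, 15 or 16, reaching -0.18 without library 12 (adjusted p 0.0139 to 0.222 over its alternatives). The LFA-1 chains Itgal and Itgb2 and the kindlin Fermt3 were not called. Itgal was at 663 to 976 CPM in WT TM and 740.4 to 925 CPM in TPdh-/- TM, Itgb2 at 365 to 473 CPM and 364 to 417 CPM, and Fermt3 at 174 to 242 CPM and 158 to 177 CPM. The fibronectin receptor chain Itga5, at 1.62 to 2.6 CPM in WT TM and 1.21 to 1.81 CPM in TPdh-/- TM, Tln2, at 1.54 to 2.49 CPM and 1.9 to 2.19 CPM, and Icam4, at 0.111 to 0.257 CPM and 0.142 to 0.258 CPM, were not called in either culture. On log2(TPM + 1) in place of counts, 10 members were called in TM, 9 of them among the 19, and the calls of Itgam, Itgb7, Itgav, Itgb3, Itgb4, Itgb5, Itga9, Itgad, Cd44 and Tln1 were lost.

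TPdh-/- TE was compared with WT TE to ask the same of effector cells. The muscle-type laminin receptor chain Itga7, the CD48 receptor Cd2, Cd9, Cd44 and the chains Itga1, Itga2 and Itgam were lower in TPdh-/- TE than in WT TE, and Cd81, Itga9, Jaml and Icam1 were higher. Of the 33 tested members 7 rose and 12 fell, where 17.3% and 14.3% of all tested genes did so and 31.6% were called. The median log2 difference of the members was -0.12 and their median size 0.36, against -0.00025 and 0.19 over all tested genes. Without libraries 5 and 12, 9 rose and 13 fell, with 19 calls shared.

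Cd81 had the smallest adjusted p in TE. It measured 0.625, 0.893, 1.12 and 1.13 CPM in WT TE and 2.37, 2.59, 5.01 and 8.32 CPM in TPdh-/- TE. The deficient libraries were all higher but spread widely, with library 8 at the top, and the log2 difference was 2.28 (SE 0.47, adjusted p = 4.46e-05). Cd9, the other tetraspanin, moved the opposite way, from 39.2, 38.1, 35.6 and 40.4 CPM in WT TE to 23.2, 23.6, 29.2 and 24.8 CPM in TPdh-/- TE. Every WT library was above every deficient one, with a log2 difference of -0.61 (SE 0.09, adjusted p = 0.000157).

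Itga7 is best known from muscle, where it pairs with Itgb1. It stood at 59.7, 52.2, 71.8 and 34.2 CPM in WT TE and 15.4, 20, 28.3 and 9.71 CPM in TPdh-/- TE. Both groups spread widely and did not overlap, and the log2 difference was -1.57 (SE 0.40, adjusted p = 0.000202). Itga1 ran at 5.78, 4.97, 5.93 and 4.94 CPM in WT TE and 1.8, 1.78, 2.49 and 3.62 CPM in TPdh-/- TE. All WT libraries were above the deficient ones, the reverse of the order in TM, and the log2 difference was -1.16 (SE 0.25, adjusted p = 0.00922). Itga2 was 30.3, 28.3, 31.7 and 29.6 CPM in WT TE and 23.2, 20, 26 and 23.6 CPM in TPdh-/- TE. It too was lower without overlap, with a log2 difference of -0.37 (SE 0.08, adjusted p = 0.0118). The NK marker sum fell from a mean of 243 TPM in WT TE to 116 TPM in TPdh-/- TE, with 4 markers higher and 2 lower. Its part in the Itga1 and Itga2 differences was not tested.

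Itgam gave 6.64, 5.02, 5.46 and 5.87 CPM in WT TE and 1.51, 1.7, 3.41 and 3.57 CPM in TPdh-/- TE. The deficient libraries fell into a lower pair, 5 and 6, and a higher pair, 7 and 8, all below the WT range, and the log2 difference was -1.18 (SE 0.33, adjusted p = 0.00301). The macrophage marker sum rose in these libraries while Itgam fell. The NK marker sum fell, though 4 of its 8 markers were called higher and 2 lower. The sum of the dendritic cell list also fell, from 2.61 to 3.32 TPM in WT TE to 0.97 to 1.49 TPM in TPdh-/- TE, with 1 of its 2 tested markers higher and 1 lower. Xcr1 made most of this sum, with means of 2.96 TPM in WT TE and 1.02 TPM in TPdh-/- TE. Zbtb46 went the other way, from 0.05 to 0.18 TPM. The part of any of these cell types in the Itgam difference was not tested. Itgax was 9.65, 8.09, 7.64 and 10.1 CPM in WT TE and 3.1, 3.41, 8.34 and 6.29 CPM in TPdh-/- TE. Library 7 lay inside the WT range, and the log2 difference of -0.74 (SE 0.36, adjusted p = 0.091) was not called. Itgad, at 0.649 to 0.783 CPM in WT TE and 0.206 to 0.38 CPM in TPdh-/- TE, fell, with a log2 difference of -1.34 (SE 0.17, adjusted p = 0.00148).

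Among the beta1 chain and its other laminin-binding partners, Itgb1 and Itga6 fell in TE and Itga3 rose. Itgb1 was 695, 738, 736 and 772 CPM in WT TE and 646, 632, 631 and 564 CPM in TPdh-/- TE. The groups were separate, but the log2 difference of -0.25 (SE 0.05, adjusted p = 0.0306) lost its call without library 2, 4 or 8 (adjusted p 0.00809 to 0.322 over its alternatives). Itga6 had 45.2, 43.8, 46 and 48.1 CPM in WT TE and 42.2, 38.9, 38.9 and 34.7 CPM in TPdh-/- TE. It was lower without overlap, with a log2 difference of -0.24 (SE 0.06, adjusted p = 0.0131). Itga3, another laminin receptor chain, was 2.03, 2.16, 2.27 and 2.51 CPM in WT TE and 2.11, 3.07, 3.45 and 3.98 CPM in TPdh-/- TE. Library 5 lay inside the WT range, and the log2 difference of 0.49 (SE 0.20, adjusted p = 0.0275) lost its call without library 1, 2, 3, 6, 7 or 8 (adjusted p 0.00142 to 0.112 over its alternatives). Itgb4, at 0.191 to 0.328 CPM in WT TE and 0.502 to 0.605 CPM in TPdh-/- TE, rose by 1.17 (SE 0.15, adjusted p = 0.00153).

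Itga9 and Itgb5 rose in TE as they did in TM. Itga9 had 0.875, 0.487, 0.671 and 0.537 CPM in WT TE and 2.33, 1.85, 1.52 and 1.9 CPM in TPdh-/- TE. No library of either group reached the range of the other, with a log2 difference of 1.56 (SE 0.22, adjusted p = 0.0041). Itgb5 was 0.953, 1.25, 1.92 and 1.59 CPM in WT TE and 1.65, 2.55, 3.14 and 3.6 CPM in TPdh-/- TE. Library 5 lay between WT libraries 3 and 4, and the log2 difference of 0.94 (SE 0.32, adjusted p = 0.0133) lost its call without library 1 or 8 (adjusted p 0.00356 to 0.0511 over its alternatives).

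Cd2, the adhesion receptor that strengthens the contact with an antigen-presenting cell, stood at 348, 326, 370.0 and 341 CPM in WT TE and 236, 256, 265 and 259.6 CPM in TPdh-/- TE. Every WT library was above the deficient ones, and the log2 difference was -0.45 (SE 0.05, adjusted p = 0.000111). Icam2, a ligand of LFA-1, was 23.8, 19.8, 22.3 and 21.4 CPM in WT TE and 16.2, 16.1, 17.7 and 18.1 CPM in TPdh-/- TE. It fell without overlap, with a log2 difference of -0.36 (SE 0.07, adjusted p = 0.000333). Icam1, the inducible ligand of LFA-1, was 38.9, 40.9, 42.3 and 41.3 CPM in WT TE and 48.7, 47.3, 49.6 and 48.1 CPM in TPdh-/- TE. The deficient libraries were tightly grouped above WT, with a log2 difference of 0.24 (SE 0.03, adjusted p = 0.00716). Jaml, a junctional adhesion molecule-like receptor that costimulates epithelial T cells in mice, was 113, 113, 105 and 115 CPM in WT TE and 155, 141, 129.8 and 147 CPM in TPdh-/- TE. It rose without overlap, by 0.36 (SE 0.06, adjusted p = 0.00707).

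Cd44 stood at 215, 202, 235 and 238 CPM in WT TE and 144, 149.9, 189 and 191 CPM in TPdh-/- TE. The deficient libraries again split into 5 and 6 below 7 and 8, all under the WT range, with a log2 difference of -0.40 (SE 0.12, adjusted p = 0.00828). Tln1 was 598, 668, 708 and 708 CPM in WT TE and 551, 613, 558 and 493 CPM in TPdh-/- TE. Library 1 lay inside the deficient range, and the log2 difference of -0.28 (SE 0.09, adjusted p = 0.0372) lost its call without library 2, 3, 4, 5, 7 or 8 and was 0.013 on log2(TPM + 1) (adjusted p 0.00477 to 0.959 over its alternatives). On that scale 13 members were called in TE, 12 of them among the 19, and the calls of Itga1, Itga2, Itga6, Itgb1, Itgb4, Cd44 and Tln1 were lost. Cd48, the ligand of Cd2, was at 439, 434, 389 and 412 CPM in WT TE and 433, 344, 335 and 313 CPM in TPdh-/- TE, with library 5 inside the WT range and a log2 difference of -0.23 (SE 0.11, adjusted p = 0.0582). It was not called but passed in 7 of 23 alternatives, with values from -0.339 to -0.0977 (adjusted p 0.000145 to 0.389 over its alternatives).

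**Figure D3:**
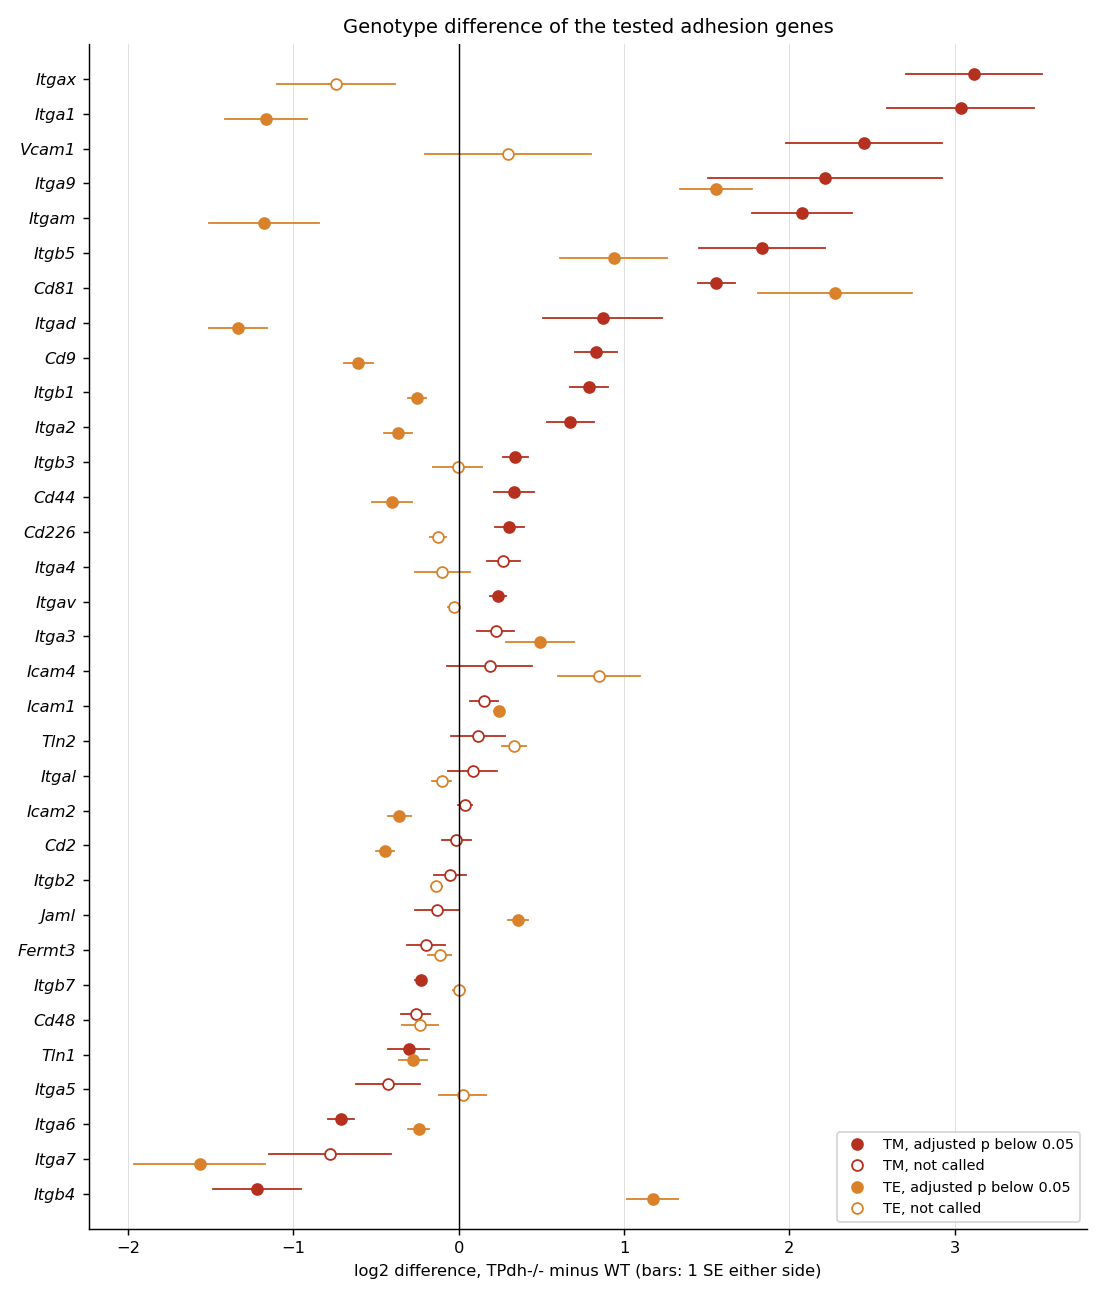
Log2 difference between TPdh-/- and WT of the 33 tested members in TM (red) and TE (orange), ordered by the TM value, with bars of 1 SE either side. Filled points passed an adjusted p of 0.05. Itga1, Itgam, Itgad, Cd9, Itgb1, Itga2, Cd44 and Itgb4 have filled points on opposite sides of 0.

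Whether the effect of PDC loss differed between the cultures was tested as the TM difference minus the TE difference. The interaction was called for 16 of the 33 members, 12 of them more positive in TM and 4 more negative, where 8.05% and 7.51% of all tested genes were called in these directions and 15.6% in either. The collagen receptor and complement receptor chains and Cd9 led. Cd9 had the smallest adjusted p, with an interaction of 1.44 (SE 0.15, adjusted p = 3.74e-06). For Itga1 it was 4.20 (SE 0.51, adjusted p = 8.4e-06), for Itgax 3.86 (adjusted p = 3.46e-05) and for Itgam 3.25 (adjusted p = 3.72e-05). Itgb1 had 1.04 (adjusted p = 1.65e-05) and Itga2 1.04 (adjusted p = 0.000151). These 6 differences were called in every alternative tried.

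In 8 members the genotype difference was called in both cultures with opposite signs. Cd44, Cd9, Itga1, Itga2, Itgad, Itgam and Itgb1 rose in TM and fell in TE, and Itgb4 fell in TM and rose in TE. Of these 8, Cd9 alone kept both calls in every alternative tried. The share of all tested genes in this class, or in the classes that follow, was not counted. Another 5 members, Cd81, Itga9, Itgb5, Tln1 and Itga6, were called in both cultures with the same sign, and of these the interaction was called for Itga6 alone, at -0.47 (SE 0.10, adjusted p = 0.00358). Calls in TM alone numbered 6 (Itgb3, Vcam1, Cd226, Itgav, Itgax and Itgb7), and the interaction was called for Cd226, Itgav, Itgax and Itgb7. Calls in TE alone numbered 6 (Icam1, Itga3, Itga7, Cd2, Icam2 and Jaml), with the interaction called for Cd2, Icam2 and Jaml. For Itgb3, Vcam1, Icam1, Itga3 and Itga7 a difference between the cultures was therefore not shown. The interaction of Itgb7, -0.23 (SE 0.05, adjusted p = 0.0227), was lost without library 3, 4, 7, 8, 14, 15 or 16 (adjusted p 0.00163 to 0.0762 over its alternatives), and that of Jaml, -0.49 (SE 0.15, adjusted p = 0.0175), without libraries 5 and 12 together (adjusted p 0.00142 to 0.0591 over its alternatives).

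The genotype and culture comparisons share groups, so the culture values that follow use libraries already described. In WT cells the change from IL-2 to IL-15 went with lower levels of most integrin chains and higher Itga4, Itgb7 and Itga6. Of the 33 tested members 6 were higher in WT TM than in WT TE and 20 lower, where 34.3% of all tested genes were called higher, 34.3% lower and 68.6% in either direction. All 13 tested alpha chains were called, 2 higher and 11 lower. The median log2 difference of the members was -0.43, against 0.0076 over all tested genes.

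Itga7 changed most. With 59.7, 52.2, 71.8 and 34.2 CPM in WT TE it was 0.312, 0.426, 0.411 and 0.884 CPM in WT TM, and the log2 difference of -6.74 (SE 0.38, adjusted p = 9.24e-11) corresponds to a level 107 times lower. Itgb5 and Itga9 dropped close to the detection limit in WT TM, at 0.0342 to 0.13 CPM and 0 to 0.217 CPM, with log2 differences of -3.85 (SE 0.37, adjusted p = 9.35e-08) and -2.83 (SE 0.63, adjusted p = 9.42e-05). The Itga9 value was -3.78 without library 12. Among the members Itga4 was the chain that rose most, from 107, 93.4, 115 and 96.1 CPM in WT TE to 403, 491, 462 and 468 CPM in WT TM. The lowest TM library had more than 3 times the highest TE level, and the log2 difference was 2.15 (SE 0.09, adjusted p = 1.55e-10).

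Several members that were higher in TPdh-/- TM than in WT TM were also lower in WT TM than in WT TE, and both comparisons use the WT TM libraries. Itgam had a WT log2 difference between TM and TE of -2.73 (SE 0.15, adjusted p = 3.24e-07), Itga2 of -1.72 (SE 0.10, adjusted p = 4.4e-10), Itgax of -1.62 (SE 0.28, adjusted p = 0.000423) and Itga1 of -1.51 (SE 0.33, adjusted p = 0.000478). Cd9 (-1.51, adjusted p = 8.8e-10), Cd44 (-1.13, adjusted p = 6.82e-08) and Itgb1 (-0.93, adjusted p = 3.62e-08) were lower in WT TM as well. Itgb7 rose by 0.57 (adjusted p = 9.89e-09), Itga6 by 0.71 (adjusted p = 8.45e-08) and Cd226 by 0.41 (adjusted p = 5.19e-05). The calls of Tln2 and Itga5, both below 4 CPM, and of Itgb4 in WT were each lost without a single library: 1, 3, 4, 9 or 12 for Tln2, 3 for Itga5, and 1 or 9 for Itgb4. Without library 12 the Tln2 value moved from 0.37 to 0.21.

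In TPdh-/- cells 9 members were higher in TM than in TE and 13 lower, where 33.0% of all tested genes were called higher, 34.7% lower and 67.7% in either direction. Itga4 rose and Itga7 fell here too. Itga4 went from 76.9, 81.7, 118 and 108 CPM in TPdh-/- TE to 612, 521, 482 and 584 CPM in TPdh-/- TM, a log2 difference of 2.52 (SE 0.17, adjusted p = 3.51e-11), and Itga7 from 9.71 to 28.3 CPM to 0.189 to 0.373 CPM, a log2 difference of -5.95 (SE 0.39, adjusted p = 1.2e-09). The order of Itga1 and Itgax turned round. Both were lower in TM than in TE in WT cells but higher in TM in TPdh-/- cells, Itga1 by 2.69 (SE 0.39, adjusted p = 8.91e-07) and Itgax by 2.24 (SE 0.47, adjusted p = 1.07e-05). Itgam had 0.52 (adjusted p = 0.0981) and Itgb1 0.11 (adjusted p = 0.269), neither of them called. Itga2 stayed lower in TM, with a log2 difference of -0.67 (SE 0.14, adjusted p = 2.29e-05). Jaml (-0.94, adjusted p = 1.36e-07) fell and Cd226 (0.83, adjusted p = 1.45e-08) and Icam2 (0.61, adjusted p = 1.87e-07) rose. The log2 difference of Cd81, -0.80 (SE 0.43, adjusted p = 0.0251), lost its call without library 7, 8, 13, 14 or 15 and was -0.34 without library 8 (adjusted p 0.00383 to 0.209 over its alternatives). The call of Itgad was lost without most single libraries and that of Fermt3 without library 6, 7 or 14.

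**Figure D4:**
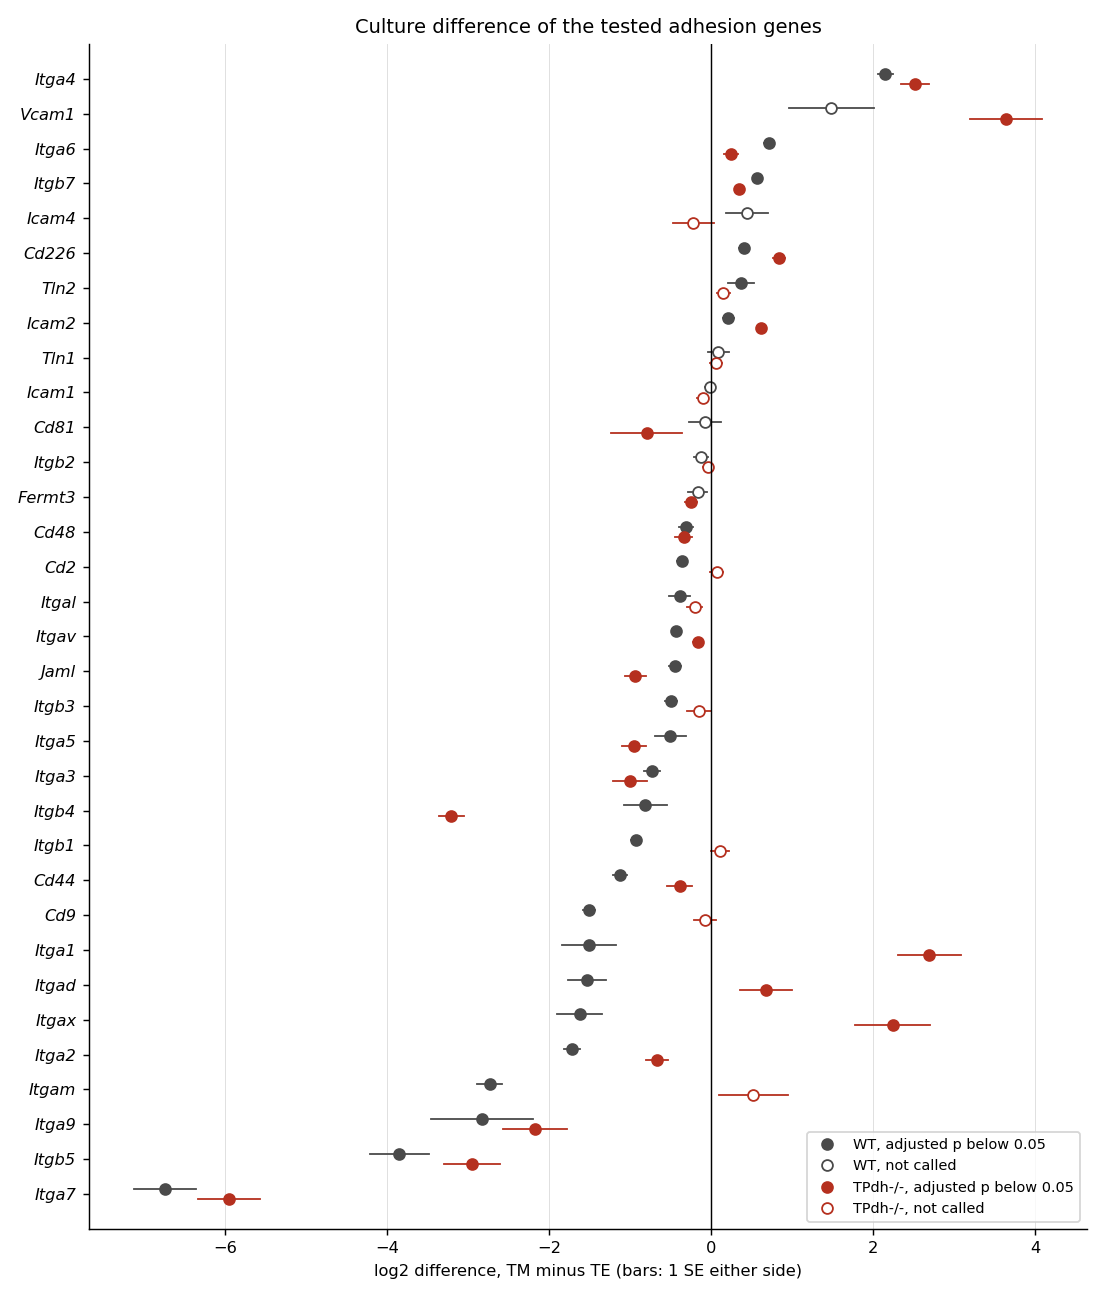
Log2 difference between TM and TE of the 33 tested members in WT (grey) and TPdh-/- cells (red), ordered by the WT value, with bars of 1 SE either side. Itga7 lies at -6.74 in WT and Itga4 at 2.15, and Itga1 and Itgax lie below 0 in WT and above 0 in TPdh-/-.

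Genes that act with these members were taken from lists chosen with earlier results of these data known. For each list below, 11.0% of all tested genes were called higher and 7.27% lower in TM, and 17.3% and 14.3% in TE. Of 3 tested integrin chains outside the members none was called between genotypes in TM and 2 rose in TE. Itgae, which pairs with Itgb7 and binds E-cadherin on epithelium, was 7.92, 8.41, 5.94 and 7.22 CPM in WT TE and 26.7, 22.1, 32.8 and 16.7 CPM in TPdh-/- TE. The deficient libraries were all higher, with a log2 difference of 1.74 (SE 0.23, adjusted p = 9.55e-05), and the interaction was -1.51 (adjusted p = 0.00776). Both TM groups held more, at 151, 192, 116 and 98.6 CPM in WT TM and 232, 178, 148 and 96.6 CPM in TPdh-/- TM, with overlapping ranges. Itga10, the other riser, went from a mean of 1.87 to 2.97 CPM, a log2 difference of 0.67 (SE 0.19, adjusted p = 0.00576).

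Of 25 tested adaptors and focal adhesion proteins 2 rose and 4 fell in TM, and 4 rose and 8 fell in TE. Of all tested genes 18.3% were called in either direction in TM and 31.6% in TE. Flna, a filamin that competes with talin for the beta tail, fell in TM with a log2 difference of -0.48 (SE 0.09, adjusted p = 0.000647). The focal adhesion protein Zyx (-0.56, adjusted p = 0.00868) fell with it. Ptk2, the focal adhesion kinase, rose in TE from a mean of 0.130 CPM to 2.67 CPM, a log2 difference of 4.34 (SE 0.32, adjusted p = 6.07e-08). Skap2, an adaptor of the integrin activation path, had -0.83 in TE (adjusted p = 2.07e-06). The GTPase Rap1 relays receptor signals to talin. Of 19 tested Rap GTPases, exchange factors and GTPase activators, none rose and 6 fell in TM, and 2 rose and 6 fell in TE. The exchange factor Rasgrp2 fell in TM (-0.49, adjusted p = 0.000447) and in TE (-0.62, adjusted p = 2.51e-05), and so did Rap1gap2, which switches Rap1 off, with -1.38 in TM (adjusted p = 3.69e-08) and -0.81 in TE (adjusted p = 5.0e-06). Rap2b fell in TM (-0.28, adjusted p = 0.000396).

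Of 11 tested genes of the CD2 and SLAM family 4 rose and 1 fell in TM, and 2 rose and 4 fell in TE. The CD48 receptor Cd244a rose in TM from a mean of 1.40 to 8.49 CPM, a log2 difference of 2.59 (SE 0.18, adjusted p = 1.62e-08). The SLAM adaptors Sh2d1b1 (3.54, adjusted p = 1.92e-05) and Sh2d1a (0.43, adjusted p = 0.0157) rose with it, and Slamf1 (0.91, adjusted p = 1.03e-07) and Cd2ap (0.50, adjusted p = 5.77e-07) rose in TE. Of 8 tested receptors that share nectin ligands with Cd226, and nectins, 3 rose and none fell in TM, and 2 rose and 3 fell in TE. Pvrig had a log2 difference of 1.71 in TM (adjusted p = 2.2e-06), and Nectin1 and Nectin3, both below 0.3 CPM on average, had 2.77 (adjusted p = 0.00375) and 1.09 (adjusted p = 0.0246). Tigit (-1.37, adjusted p = 5.62e-07) and Cd96 (-0.66, adjusted p = 2.05e-06), which bind the same ligand as Cd226, fell in TE.

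Of 16 tested tetraspanins other than Cd9 and Cd81, 6 rose and 3 fell in TM, and 6 rose and 4 fell in TE. Cd63, a tetraspanin of late endosomes, rose in TM from a mean of 0.0931 to 0.718 CPM (2.92, adjusted p = 2.89e-05) and Tspan3 rose by 0.51 (adjusted p = 0.000525). Tspan4 fell in both cultures, with -0.56 in TM (adjusted p = 0.00113) and -1.06 in TE (adjusted p = 7.64e-07), and Tspan2 fell in TE (-1.55, adjusted p = 7.31e-07). Of 29 listed ligands 15 were tested, with 4 higher and 3 lower in TM and 6 higher and 1 lower in TE. Spp1, the osteopontin that binds alpha v and alpha 4 pairs, rose in TM from a mean of 1.46 to 33.7 CPM (4.53, SE 0.27, adjusted p = 3.82e-09) and in TE from 12.7 to 29.6 CPM (1.22, SE 0.19, adjusted p = 0.000128). Thbs1 (2.03, adjusted p = 0.00118) and Cdh1, the E-cadherin bound by Itgae (0.99, adjusted p = 0.004), rose in TM, and the laminin chain Lama5 (1.06, adjusted p = 0.000317) rose in TE. Macrophages also transcribe Spp1 and Cd63, and their marker list rose in the same libraries, and its part in these values was not tested.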

How the data were processed

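RNA was poly-A selected, made into libraries with a kit that does not record strand, and sequenced as read pairs. The authors aligned reads with STAR 2.7.6a to GRCm38 (mm10) and deposited, per library, RSEM 1.3.3 expected counts and TPM per Ensembl gene. TPM divides by gene length and sums to 1000000 per library, so the deposited TPM values compare levels between genes. Expected counts were rounded here and tested with edgeR 4.0.16 (TMM factors, glmQLFit and glmQLFTest, 1 mean per group over all 16 libraries), after filterByExpr with a minimum count of 10, which left 15277 genes. P-values were adjusted by Benjamini-Hochberg over all of them, and calls were made below 0.05. CPM values carry TMM factors, and SE is the spread of log2 CPM (prior count 2) between libraries. Standard errors therefore do not belong to the quasi-likelihood model. On counts simulated for the TM comparison (15001 genes), 80 of the 100 changes of 2-fold were called and 97 of the 100 of 4-fold, with 12 false among 189 calls. The simulation used the dispersions that edgeR estimated and left all other genes equal between the 4 groups. Its rates therefore need not hold for the real data or for changes under 2-fold.

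Alternatives were no filter, RLE size factors, DESeq2 1.42.0, limma 3.58.1 on log2 CPM and on log2(TPM + 1), only the 2 groups compared, and each library left out. Libraries 5 and 12 were also left out together. No 2 libraries agreed within sampling noise (chi-square per degree of freedom at least 8.59). Members were described in full where called in a genotype comparison or the interaction with 1 CPM or more in the mean of the higher group, or among the 8 largest calls in WT by culture, and genes of other lists by smallest adjusted p. Some genes of these lists are counted but not reported here by name. The members and lists were chosen with earlier results of these data known.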

Additional observations from a re-analysis of the deposited data

Results flagged for a closer look

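Among 132 sets of 4 libraries (33 members in 4 groups), 6 had 1 library that lay beyond the usual critical value of Dixon's test, and chance at 1 in 20 gives 6.6. Itga5 in WT TE stood at 3.47 CPM in library 3 and at 2.51 to 2.56 CPM in the others. Itgb7 in TPdh-/- TM was 489 CPM in library 13 and 454 to 459.5 CPM in the rest. Icam2 in TPdh-/- TM had 26.9 CPM in library 16, the others lying at 25.5 to 25.7 CPM. In WT TM, library 12 had the lowest Cd48, 283 CPM against 352 to 361 CPM, and the highest Fermt3, 242 CPM against 174 to 182 CPM. Cd81 in TPdh-/- TM was 3.18 CPM in library 16 and 2.37 to 2.51 CPM in the other libraries.

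The effect of genotype differed between TM and TE by the interaction test of edgeR in 16 members. The log2 interaction was 4.20 for Itga1, 3.86 for Itgax, 3.25 for Itgam, 2.21 for Itgad, 1.44 for Cd9, 1.04 for Itga2 and 1.04 for Itgb1. It was 0.74 for Cd44, 0.43 for Cd2, 0.43 for Cd226, 0.40 for Icam2 and 0.27 for Itgav. Negative values were found for Itgb4 (-2.40), Jaml (-0.49), Itga6 (-0.47) and Itgb7 (-0.23). Adjusted p ran from 3.74e-06 for Cd9 to 0.0227 for Itgb7.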

How the results depend on the processing

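Of 102 called member results, 69 kept their call under every alternative tried and 33 lost it under at least 1. Leaving out each library in turn gave 15 to 20 called members in TM, 15 to 22 in TE, 15 to 17 for the interaction, 24 to 27 between cultures in WT and 20 to 23 in TPdh-/-, and the other alternatives 10 to 19, 13 to 22, 15 to 16, 22 to 27 and 20 to 22. With limma on log2(TPM + 1) the TM count was 10, and the pseudocount of 1 TPM shrinks the differences of members below that level by construction. This scale moved the median of all genes by 0.18 between cultures in WT, 0.13 between genotypes in TE and -0.16 for the interaction. On it 2 calls turned their sign, Tln1 between genotypes in TE (0.013) and Itgb4 between cultures in WT (0.12), and the cause was not tested. The interaction calls of Itgav, Cd226 and Cd2 were lost there too. The labels do not say whether TE and TM libraries came from the same mice, so no paired analysis was made. The tests treat all 16 libraries as independent, and any pairing between cultures was not modelled. Depth limits Itga8, Itgb6, Itgb8, Vcam1, Icam4, Itgb4, Itga9, Itgb5 and Itgad, all under or near the filter in at least 1 group.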
